A study of Mus musculus with 16 samples.

Results

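The genes described here are 42 targets and regulators of ATF4 and of the unfolded protein response, measured in primary mouse embryonic fibroblasts treated with an iron chelator, with a deacetylase inhibitor, with both or with vehicle. Members were found by gene symbol in the table that pairs the array's probe sets with genes. A probe set is a group of short probes that reports one transcript. For each gene the probe set with the highest mean signal was used, among those with a signal of at least 200 on at least 2 of the 16 arrays. Of the 42 members, 41 had a probe set naming a single gene and 40 passed the signal minimum, out of 11481 genes tested in all. Pycr1 was not analysed here. Slc7a11, the cystine transporter, stayed below the minimum, with a highest signal of 198 on its brighter probe set. Cars1 and Sars1 are listed under their older symbols Cars and Sars on the array.

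Cells meet a shortage of amino acids, heme or folding capacity by phosphorylating the initiation factor eIF2, which slows most translation but raises translation of Atf4. The ATF4 protein, a basic leucine zipper factor, pairs with C/EBP proteins and switches on genes for amino acid synthesis, amino acid import and tRNA charging, and, under lasting stress, the factor CHOP (gene Ddit3). Unfolded protein in the endoplasmic reticulum (ER) activates the kinase PERK, which feeds the same ATF4 arm, and the sensors IRE1 and ATF6. These work through the factor XBP1 and through cleaved ATF6, and raise ER chaperones, disulfide isomerases and genes of ER-associated degradation. Much of this control acts on translation, splicing and cleavage, and arrays measure messenger RNA only.

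The cells came from e14.5 embryos, were infected with adenovirus carrying Cre recombinase at passage 3, and were then expanded at least 100-fold. DP is 2,2'-dipyridyl, a chelator of iron that blocks the prolyl hydroxylases and so stabilises the hypoxia factor HIF, and was given at 100 µM. TSA is trichostatin A, an inhibitor of histone deacetylases, and was given at 100 ng/ml. The 4 treatments were DP, TSA, TSA followed by DP 30 min later, and ethanol vehicle, all in normal oxygen, and cells were harvested 3 h after the last agent went in. The line triCH1flox1 carried CBP CH1/flox with p300 CH1/CH1, and the line triCH1flox2 carried CBP CH1/CH1 with p300 CH1/flox, where CH1 marks an allele without the CH1 domain that binds HIF and other factors. The control lines were flox1, CBP +/flox, and flox2, p300 +/flox. All 4 lines received Cre, so the control lines also lost a CBP or p300 allele where recombination took place. Each line was put on 1 array per treatment, with no replicate cultures. The spread behind a test of a treatment change is therefore how far the 2 lines of a class disagree in their changes, together with array noise. The 2 lines of a class also differ in genotype.

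Fibroblast markers were at or above 200 on all 16 arrays for 8 of 8 genes. Of these, Pdgfrb fell by 0.92 with TSA and by 0.98 with both agents on the log2 scale (adjusted p 1.68e-06 and 7.22e-07), Col3a1 fell by 0.18 with TSA (adjusted p 0.0288), and Thy1 was 1.83-fold lower in triCH1 than in control lines (adjusted p 0.0206). The part of these shifts in the results was not tested. All 4 endothelial markers stayed below 200 on every array, and 0 of 5 macrophage markers reached 200 on all arrays, although Csf1r did on 13 (median 261) and Adgre1 on 4. Of the epithelial markers, Cdh1 and Krt8 stayed below 200, while Epcam was between 199 and 1120 and Krt18 between 80.4 and 477. The summed epithelial signal was 602 to 914 with DP, 573 to 1098 with TSA, 576 to 944 with TSA and DP and 658 to 1764 with vehicle, the highest being the flox1 vehicle array, and the part of other cells in the results was not tested. In such bulk samples a change in the number of cells and a change in RNA per cell cannot be told apart. The vehicle array of flox1 stood apart, with a 3' to 5' Gapdh ratio of 2.59 against 0.907 to 1.26 on the other 15 arrays, which is a sign of shorter RNA. It had an 18S ribosomal RNA signal of 6000 and the DP array of flox2 one of 4300, against 928 to 1810 on the other 14 arrays. Member calls that were lost without either array are given with the value found without it.

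Promoter sequences of 6 members on which the results turn are printed here, as the 250 bases before the annotated start of each gene, 5′ to 3′ on the gene's strand (RefSeq, GRCm38.p6). Herpud1 and Xbp1 fell most with TSA, Nupr1 and Vldlr rose with DP, Creld2 rose with TSA, and Hspa5 is the main ER chaperone. Capitals mark the motifs found: the C/EBP-ATF element that ATF4 binds with a C/EBP partner, TGATGNAA, the ER stress element, CCAAT and CCACG set 9 bases apart, and the shorter ER stress element II, ATTGG and CCACG set 1 base apart. All were searched on both strands, and overlaps between motifs were not removed.
Herpud1, chr8:94386179-94386428, plus strand: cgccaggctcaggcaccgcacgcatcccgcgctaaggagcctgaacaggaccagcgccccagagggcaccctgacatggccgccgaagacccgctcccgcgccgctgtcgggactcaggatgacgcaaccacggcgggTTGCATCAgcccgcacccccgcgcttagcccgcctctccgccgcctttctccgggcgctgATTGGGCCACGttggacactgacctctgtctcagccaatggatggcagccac
Xbp1, chr11:5520391-5520640, plus strand: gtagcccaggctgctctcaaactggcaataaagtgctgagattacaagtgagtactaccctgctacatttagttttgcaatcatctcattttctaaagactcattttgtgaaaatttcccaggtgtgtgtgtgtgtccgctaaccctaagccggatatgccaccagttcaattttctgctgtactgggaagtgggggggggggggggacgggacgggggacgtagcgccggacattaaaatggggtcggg
Nupr1, chr7:126625471-126625720, minus strand: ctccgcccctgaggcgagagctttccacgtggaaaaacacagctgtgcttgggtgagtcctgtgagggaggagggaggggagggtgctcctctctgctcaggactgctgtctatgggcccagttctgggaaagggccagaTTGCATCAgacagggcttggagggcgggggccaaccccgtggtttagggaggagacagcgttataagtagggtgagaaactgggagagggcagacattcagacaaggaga
Vldlr, chr19:27216770-27217019, plus strand: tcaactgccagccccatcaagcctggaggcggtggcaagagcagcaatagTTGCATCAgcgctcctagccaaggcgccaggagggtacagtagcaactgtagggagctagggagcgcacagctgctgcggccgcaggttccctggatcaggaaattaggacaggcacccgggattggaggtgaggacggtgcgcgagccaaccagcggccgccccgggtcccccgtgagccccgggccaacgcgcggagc
Creld2, chr15:88819396-88819645, plus strand: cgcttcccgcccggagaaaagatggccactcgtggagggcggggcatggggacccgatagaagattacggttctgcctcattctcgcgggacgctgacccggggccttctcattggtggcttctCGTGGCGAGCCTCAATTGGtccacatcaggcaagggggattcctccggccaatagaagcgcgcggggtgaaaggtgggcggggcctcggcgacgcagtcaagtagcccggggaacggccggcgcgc
Hspa5, chr2:34771840-34772089, plus strand: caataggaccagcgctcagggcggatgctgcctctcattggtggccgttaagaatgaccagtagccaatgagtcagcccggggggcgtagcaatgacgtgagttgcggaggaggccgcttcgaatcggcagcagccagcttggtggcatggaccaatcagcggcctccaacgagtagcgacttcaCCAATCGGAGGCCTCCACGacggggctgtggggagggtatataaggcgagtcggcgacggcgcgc

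The table of promoters held 41 promoters of 37 members. In windows of 250 bases before and 50 bases after the start, 8 of these 41 promoters held the C/EBP-ATF element, 19.5%, and 3.97% of all 32851 promoters did. The 8 genes were Herpud1, Nupr1, Vldlr, Asns, Chac1, Trib3, Pycr1 and Slc7a11. The first base of the match stood at -112 in Herpud1, -110 in Nupr1, -200 in Vldlr and -23 in Asns, counted from the start. The ER stress element was found in 6 of the 41 promoters, 14.6%, and in 0.119% of all promoters. These belonged to Calr, Creld2, Dnajc3, Hsp90b1, Hspa5 and Pdia6, all ER proteins, with the first base at -126 in Creld2 and -65 in Hspa5. The ER stress element II, which was added to the search after the Herpud1 sequence had been seen, was in the Herpud1 promoter alone among members, at -52, and in 0.0365% of all promoters. The unfolded protein response element, TGACGTGG, was in 0 of 41 member promoters and 0.676% of all. The Xbp1 window held none of the 4 motifs, and the second listed Vldlr start, at a separate site, held none either. Of the 6 members with the ER stress element, Creld2 passed the test with TSA, where 28.2% of all genes did. Calr, Dnajc3, Hsp90b1, Hspa5 and Pdia6 did not pass on the probe set used. Other Hspa5 probe sets are described with its signals below. These matches describe the letters of the windows and say nothing of binding.

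With DP few members passed the test. Of 40 members, 2 rose and 0 fell with DP over the 4 lines and 38 did not pass, where 1.71% of all genes tested passed, 1.44% up and 0.27% down. The threshold was an adjusted p of 0.05 in a linear model across all genes (limma), on the scale of log2(signal + 50), which understates changes of low signals. The 95% interval lay within a 1.5-fold change either way for 34 of the 40 members and for 6426 of all 11481 genes. Counted without adjustment, 8 of 40 members had p under 0.05, as did 12.6% of all genes. The median change was 0.04 for the 40 members and -0.03 for all genes. TSA moved a larger share, with 9 members up, 6 down and 25 not past the threshold, where 28.2% of all genes tested passed, 15.8% up and 12.5% down. With TSA and DP together, 13 rose, 8 fell and 19 did not pass, where 31.6% of all genes passed, 17.8% up and 13.8% down. No test was made of these member counts against all genes. The 3 comparisons share the same 4 vehicle arrays, so they are not independent of each other.

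Separation of the arrays was also counted directly. The 4 DP arrays lay above the 4 vehicle arrays for 2 members, Trib3 and Vldlr, and below for 1, Cars1, where 4.24% of all genes did not overlap, 2.26% above and 1.99% below. The TSA arrays lay above vehicle for 9 members and below for 6, where 23.2% of all genes did not overlap, 13.1% above and 10% below. The arrays with both agents lay above vehicle for 9 and below for 7, where 24.1% of all genes did not overlap, 13.7% above and 10.4% below. Against TSA they lay above for 2, Pdia4 and Creld2, and below for 1, Cars1, where 2.72% of all genes did not overlap, 1.26% above and 1.45% below. Trib3 and Cars1 thus separated with DP without passing the model's threshold.

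**Figure D1:**
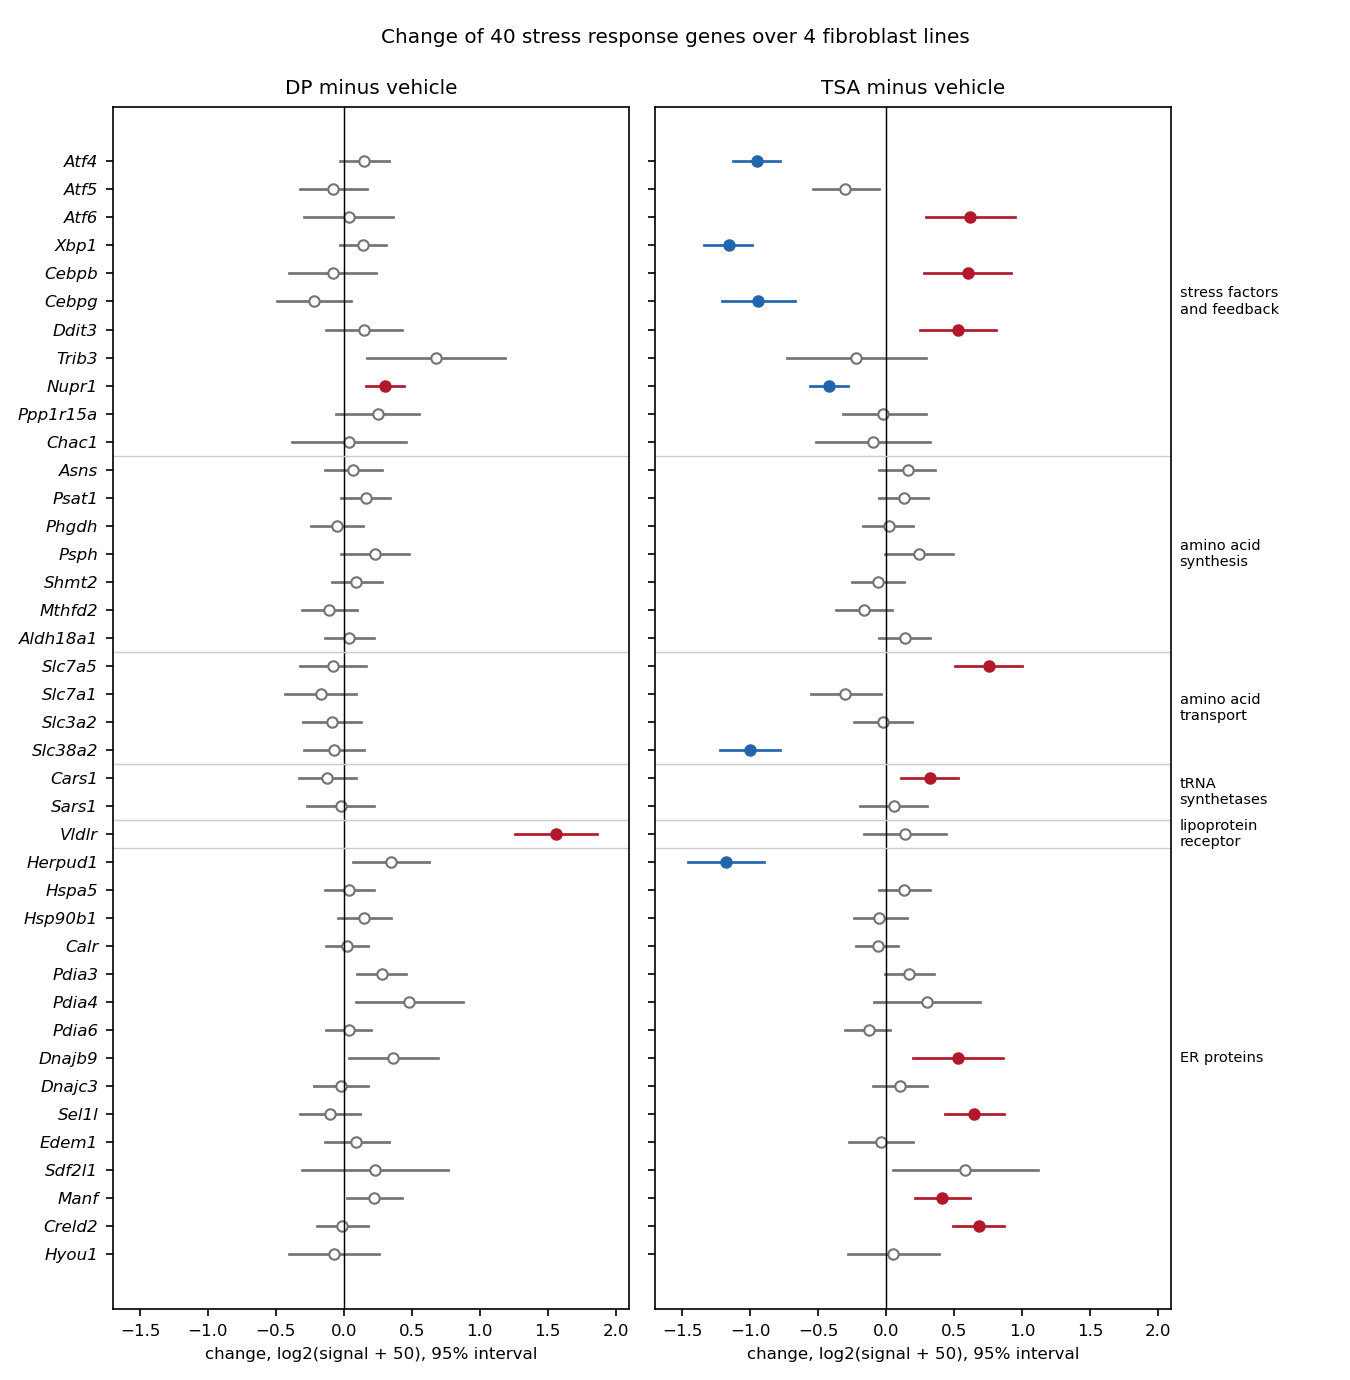
Change of 40 member genes with DP (left) and with TSA (right), each against vehicle over 4 lines. The horizontal axis is the difference in log2(signal + 50), points are estimates and bars 95% intervals; filled red points rose, filled blue points fell, and open points did not pass an adjusted p of 0.05. With DP the filled points are Vldlr and Nupr1 alone, and with TSA 9 are red and 6 blue.

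Among the transcription factors, TSA lowered Atf4 itself. Its signal was 5655, 6055, 6205 and 6687 with DP, 2851, 3050, 2617 and 2821 with TSA, 2718, 3483, 2885 and 3180 with TSA and DP, and 5632, 5670, 5264 and 5563 with vehicle, in the lines triCH1flox1, triCH1flox2, flox1 and flox2, the order kept for all values by array. The 8 arrays with TSA lay below the 8 arrays without it. With TSA the change was -0.95 (SE 0.0841, adjusted p 5.97e-07), 1.94-fold lower, and it was between -0.99 and -0.88 in the 4 lines. With DP it was 0.15 (SE 0.0841, adjusted p 0.499), above 0 in 4 of 4 lines but with overlapping arrays. A separate Atf4 probe set gave -1.41 with TSA.

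Xbp1, the factor that IRE1 activates by splicing its messenger RNA, had the smallest adjusted p of all members with TSA. Its signal was 6703, 6742, 7360 and 7648 with DP, 2869, 2899, 2867 and 2757 with TSA, 2584, 2590, 2972 and 3316 with TSA and DP, and 6436, 5634, 6866 and 6891 with vehicle. No array with TSA reached an array without it. The change with TSA was -1.16 (SE 0.0819, adjusted p 7.37e-08), 2.24-fold lower, and the change with DP was 0.14 (SE 0.0819, adjusted p 0.514). Of the other 3 Xbp1 probe sets, 2 fell as well, by 0.76 and 0.92 on the log2 scale, and the dimmest gave -0.42 without passing. Spliced and unspliced Xbp1 were not told apart.

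Cebpg, a C/EBP protein that dimerises with ATF4, had signals of 1047, 1286, 586 and 838 with DP, 516, 712, 430 and 501 with TSA, 647, 728, 509 and 576 with TSA and DP, and 1020, 1313, 910 and 1041 with vehicle. The TSA arrays lay below the vehicle arrays. The change with TSA was -0.94 (SE 0.128, adjusted p 4.28e-05), 1.91-fold lower. Its 2 other probe sets, both dimmer, gave -0.44 and -0.05 and did not pass.

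Nupr1, a small stress-induced nuclear protein and ATF4 target, moved in opposite directions with the 2 agents. Its signal was 13390, 8949, 18781 and 12480 with DP, 7934, 5655, 11248 and 7464 with TSA, 9746, 6984, 12536 and 8734 with TSA and DP, and 10896, 7767, 14436 and 9989 with vehicle. The arrays overlap between treatments, since the vehicle arrays alone span 7767 to 14436, but within every line DP was above vehicle and TSA below it. The change with DP was 0.30 (SE 0.0667, adjusted p 0.0255), and with TSA -0.42 (SE 0.0667, adjusted p 0.000172). The rise with DP is near the threshold: leaving out a line gave 0.28 to 0.32 with adjusted p between 0.1 and 0.349, and it was lost without the vehicle array of flox1 (adjusted p 0.0857) and without the DP array of flox2 (adjusted p 0.0863). Without the line as a block neither change passed, with adjusted p of 0.725 for DP and 0.156 for TSA.

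Ddit3, which encodes the stress factor CHOP, rose with TSA. Its signal was 840, 1607, 1209 and 1425 with DP, 1441, 1778, 1370 and 2010 with TSA, 1398, 2378, 1696 and 2081 with TSA and DP, and 796, 1170, 1374 and 1189 with vehicle. In flox1 the TSA and vehicle arrays were level, and in the other 3 lines TSA was higher. The change with TSA was 0.53 (SE 0.132, adjusted p 0.00614), 1.45-fold, and it did not pass without flox2 (0.35, adjusted p 0.131), without triCH1flox1 (0.47, adjusted p 0.0541) or without the line block (adjusted p 0.0855), nor as the mean of its 2 probe sets (0.50, adjusted p 0.0656). Atf6, the ER membrane sensor and factor, rose by 0.62 (SE 0.154, adjusted p 0.00615), which was lost without flox2 (0.51, adjusted p 0.0785) and without triCH1flox1 (0.44, adjusted p 0.102). Its 2 dimmer probe sets gave 0.27 and -0.31 and did not pass, and the mean of all passing probe sets gave 0.19. Cebpb, which encodes another partner of ATF4, rose by 0.60 (SE 0.151, adjusted p 0.00694), and did not pass without flox2 (0.45, adjusted p 0.0911) or without the line block (adjusted p 0.129).

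Trib3, a pseudokinase that CHOP and ATF4 induce and that holds both in check, had low signals of 385, 521, 402 and 582 with DP, 330, 201, 157 and 242 with TSA, 214, 169, 69.7 and 304 with TSA and DP, and 330, 329, 199 and 248 with vehicle. The 4 DP arrays lay above the 4 vehicle arrays, as they did for 2.26% of all genes. The change with DP was 0.68 (95% interval 0.17 to 1.19) and did not pass, with an adjusted p of 0.239. Its other probe set, of like brightness, gave 0.72 and did not pass either. With TSA the change was -0.22 (adjusted p 0.541).

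The remaining regulators did not pass with either agent. Atf5, a relative of Atf4, gave -0.08 with DP and -0.30 with TSA (adjusted p 0.0651). Ppp1r15a, the phosphatase subunit that reverses eIF2 phosphorylation, gave 0.25 with DP and -0.02 with TSA. Chac1, which breaks down glutathione, gave 0.04 and -0.10. Of the 11 stress factors and feedback genes, then, DP raised 1, where 1.44% of all genes rose. TSA raised 3 and lowered 4, where 15.8% of all genes rose and 12.5% fell.

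**Figure D2:**
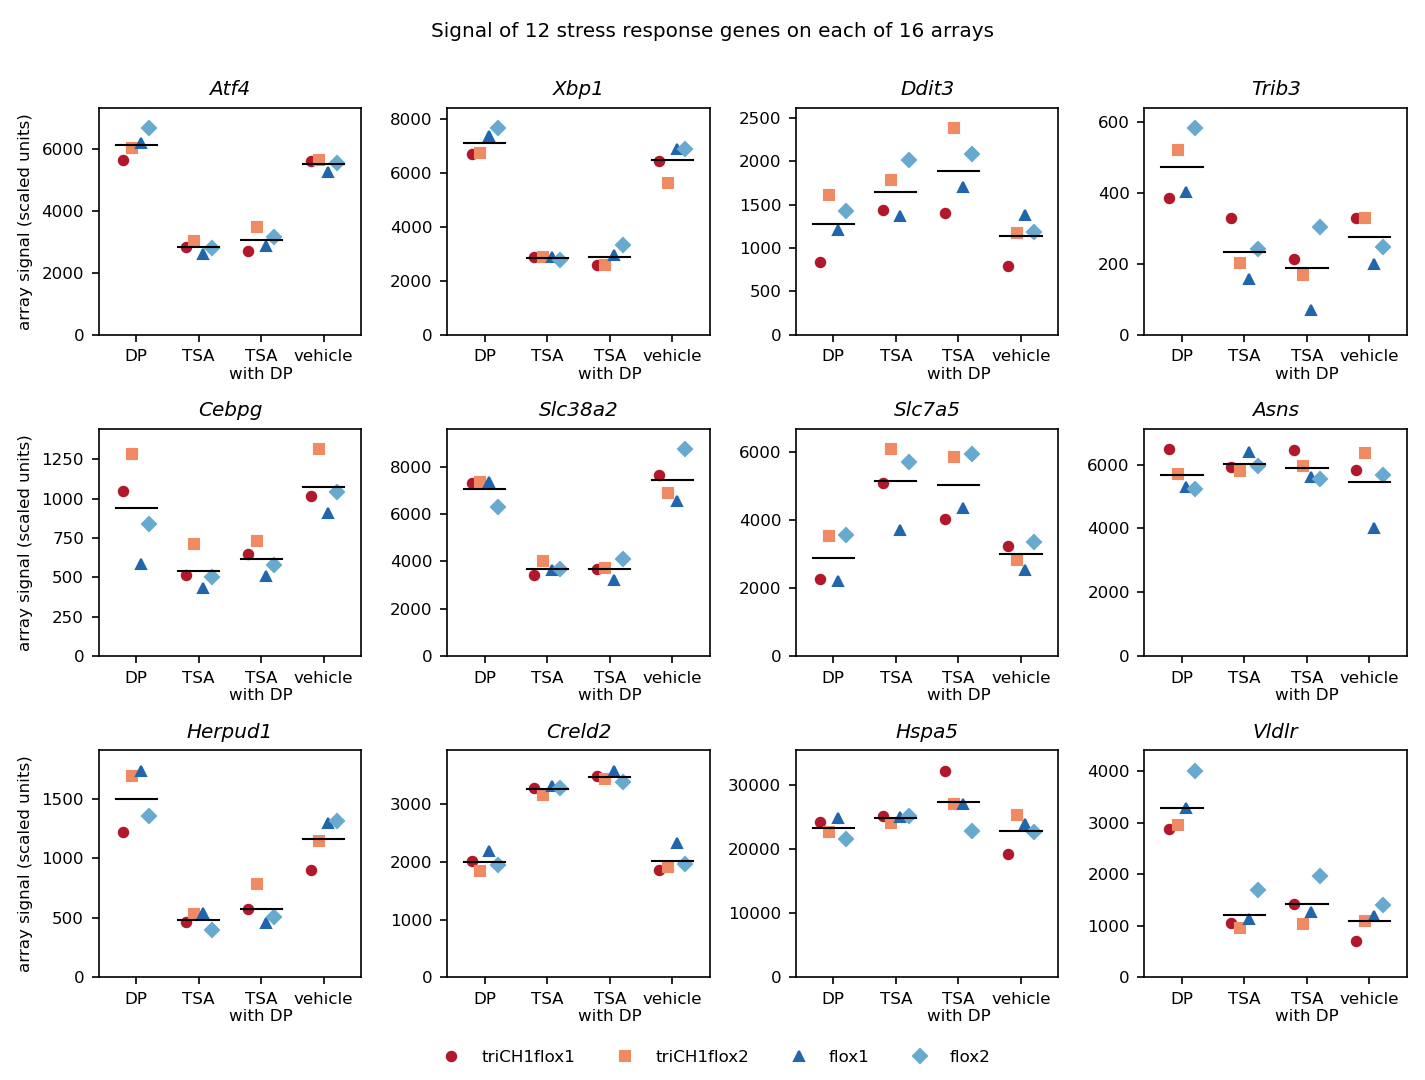
Signal of 12 member genes on each of the 16 arrays, by treatment. The vertical axis is the scaled array signal from 0, symbols are the 4 lines and black bars the mean of 4 lines. In the panels of Atf4, Xbp1, Slc38a2 and Herpud1 the arrays with TSA lie below those without it, in the panels of Slc7a5 and Creld2 above, and in the Vldlr panel the DP arrays stand alone.

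No gene of amino acid synthesis passed the test with either agent alone. With DP 0 of 7 passed, where 1.71% of all genes did, and with TSA 0 of 7, where 28.2% did. In both comparisons the 95% interval of all 7 lay within a 1.5-fold change either way. Of all 11481 genes, 6426 did so with DP and 4313 with TSA. Asns, asparagine synthetase and a standard readout of ATF4, had signals of 6475, 5707, 5306 and 5246 with DP, 5919, 5804, 6393 and 5951 with TSA, 6450, 5971, 5602 and 5550 with TSA and DP, and 5835, 6360, 4005 and 5681 with vehicle. The arrays overlapped among all treatments, and the lowest of the 16 was the flox1 vehicle array, which also stood apart in RNA quality. The change was 0.07 with DP (95% interval -0.14 to 0.28, adjusted p 0.829) and 0.16 with TSA (95% interval -0.05 to 0.36, adjusted p 0.26). Psat1, Phgdh and Psph, the 3 enzymes of serine synthesis, gave 0.16, -0.05 and 0.23 with DP and 0.13, 0.02 and 0.24 with TSA. Shmt2 and Mthfd2, which pass serine carbon to mitochondrial folate, gave 0.09 and -0.11 with DP and -0.06 and -0.16 with TSA. Aldh18a1, of proline synthesis, gave 0.04 and 0.14.

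The amino acid transporters split. Slc7a5, the large neutral amino acid transporter LAT1, had signals of 2259, 3529, 2216 and 3562 with DP, 5100, 6085, 3706 and 5729 with TSA, 4040, 5858, 4351 and 5944 with TSA and DP, and 3240, 2842, 2532 and 3370 with vehicle. All TSA arrays were above all vehicle arrays, and the change was 0.76 (SE 0.115, adjusted p 0.000115), 1.69-fold. Slc38a2, the sodium-coupled neutral amino acid transporter SNAT2, went the other way, with signals of 7296, 7340, 7354 and 6302 with DP, 3423, 4025, 3652 and 3664 with TSA, 3655, 3716, 3213 and 4101 with TSA and DP, and 7662, 6872, 6532 and 8724 with vehicle. All TSA arrays were below all vehicle arrays, and the log2 change was -1 (SE 0.104, adjusted p 3.08e-06), 2.00-fold lower. A second Slc38a2 probe set also fell, by 1.04 on the log2 scale, and a dimmer one gave -0.09. Slc3a2, the chain that pairs with Slc7a5, gave -0.02 with TSA, and Slc7a1, the cationic amino acid transporter, gave -0.30 (adjusted p 0.0835). With DP all 4 transporters were between -0.17 and -0.07 and 0 of 4 passed. Of the tRNA synthetases, Cars1 rose with TSA by 0.32 (SE 0.0982, adjusted p 0.022), a call that was lost when any 1 line was left out (0.30 to 0.34, adjusted p 0.0903 to 0.125) and without the flox1 vehicle array (0.30, adjusted p 0.0589). The mean of its 2 probe sets gave 0.08, since the dim second one gave -0.16. Sars1 gave 0.06.

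Among the ER proteins TSA raised 4 of 15 and lowered 1, where 15.8% of all genes rose and 12.5% fell. DP moved 0 of 15, where 1.71% of all genes passed. With DP 5 of the 15 had an unadjusted p under 0.05, where 12.6% of all genes did. Herpud1, an ER membrane protein of the degradation complex, had signals of 1224, 1693, 1736 and 1355 with DP, 461, 531, 540 and 399 with TSA, 569, 780, 456 and 504 with TSA and DP, and 903, 1144, 1299 and 1313 with vehicle. TSA arrays were all below vehicle arrays, while 3 of the 4 DP arrays reached past the 1313 of the highest vehicle array. With TSA the change was -1.18 (SE 0.132, adjusted p 6.34e-06), 2.27-fold lower, and with DP 0.35 (95% interval 0.07 to 0.63, adjusted p 0.276). Its second probe set gave -0.90 with TSA, past the threshold.

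Creld2, a secreted ER stress protein, had signals of 2015, 1850, 2195 and 1947 with DP, 3286, 3152, 3315 and 3279 with TSA, 3493, 3436, 3581 and 3381 with TSA and DP, and 1867, 1914, 2325 and 1959 with vehicle. The TSA arrays formed a narrow band above the vehicle arrays. The change with TSA was 0.68 (SE 0.0899, adjusted p 3.09e-05), 1.61-fold, and with DP -0.01.

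Sel1l, the scaffold of the ER degradation ligase, had signals of 1756, 1865, 2171 and 2139 with DP, 3203, 3453, 2814 and 4104 with TSA, 3211, 3901, 3555 and 3635 with TSA and DP, and 2017, 2081, 2007 and 2402 with vehicle. TSA arrays were again all above vehicle arrays, with a change of 0.65 (SE 0.104, adjusted p 0.000182). Its 3 other probe sets gave 0.95, past the threshold, and 0.37 and -0.05, not past it. Manf, a secreted ER stress factor, rose by 0.41 (adjusted p 0.00448), and Dnajb9, a co-chaperone of the chaperone BiP, by 0.53 (adjusted p 0.0167). Manf did not pass without flox1 (0.34, adjusted p 0.0891). Dnajb9 did not pass without flox1 (0.35, adjusted p 0.161) or without its vehicle array (0.36, adjusted p 0.109), nor without triCH1flox1 (adjusted p 0.0674) or triCH1flox2 (adjusted p 0.0632).

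Hspa5, which encodes BiP, the most abundant ER chaperone, had signals of 24172, 22638, 24842 and 21529 with DP, 25211, 24102, 25071 and 25167 with TSA, 32235, 26984, 27029 and 22867 with TSA and DP, and 19260, 25348, 23887 and 22651 with vehicle. The arrays of all treatments overlapped. The change was 0.04 with DP (95% interval -0.14 to 0.22) and 0.13 with TSA (95% interval -0.05 to 0.32, adjusted p 0.271). Its other probe sets disagreed with each other: with TSA one gave 0.24 and a much dimmer one -0.62, both past the threshold in a fit of each probe set on its own. The chaperones Hsp90b1 and Calr and the isomerase Pdia6 gave 0.15, 0.02 and 0.04 with DP and -0.05, -0.06 and -0.13 with TSA. The co-chaperone Dnajc3 and the degradation factor Edem1 gave -0.02 and 0.09 with DP and 0.10 and -0.04 with TSA. Hyou1, a nucleotide exchange factor of BiP, gave -0.07 and 0.05. Sdf2l1, which works with ER co-chaperones, gave 0.23 with DP and 0.58 with TSA (adjusted p 0.0992), and the isomerase Pdia4 gave 0.48 (adjusted p 0.291) and 0.30.

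Pdia3, a disulfide isomerase of glycoprotein folding, was the only ER protein past the threshold with DP in a class of lines, the control lines, where 1.55% of all genes passed. Its signal was 13887, 15774, 19366 and 18128 with DP, 14377, 15335, 16773 and 15087 with TSA, 15021, 19255, 17240 and 15566 with TSA and DP, and 15023, 14462, 11459 and 14047 with vehicle. In both control lines the DP array was above every vehicle array. The change with DP in the control lines was 0.56, but it was 0.35 without the vehicle array of flox1, the lowest of the 16, with an adjusted p of 0.482. It was 0.37 without flox1 (adjusted p 0.709) and 0.61 without the DP array of flox2 (adjusted p 0.112), and it did not pass without the signal filter, the line block or the variance trend (adjusted p 0.0656, 0.0796 and 0.237).

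**Figure D3:**
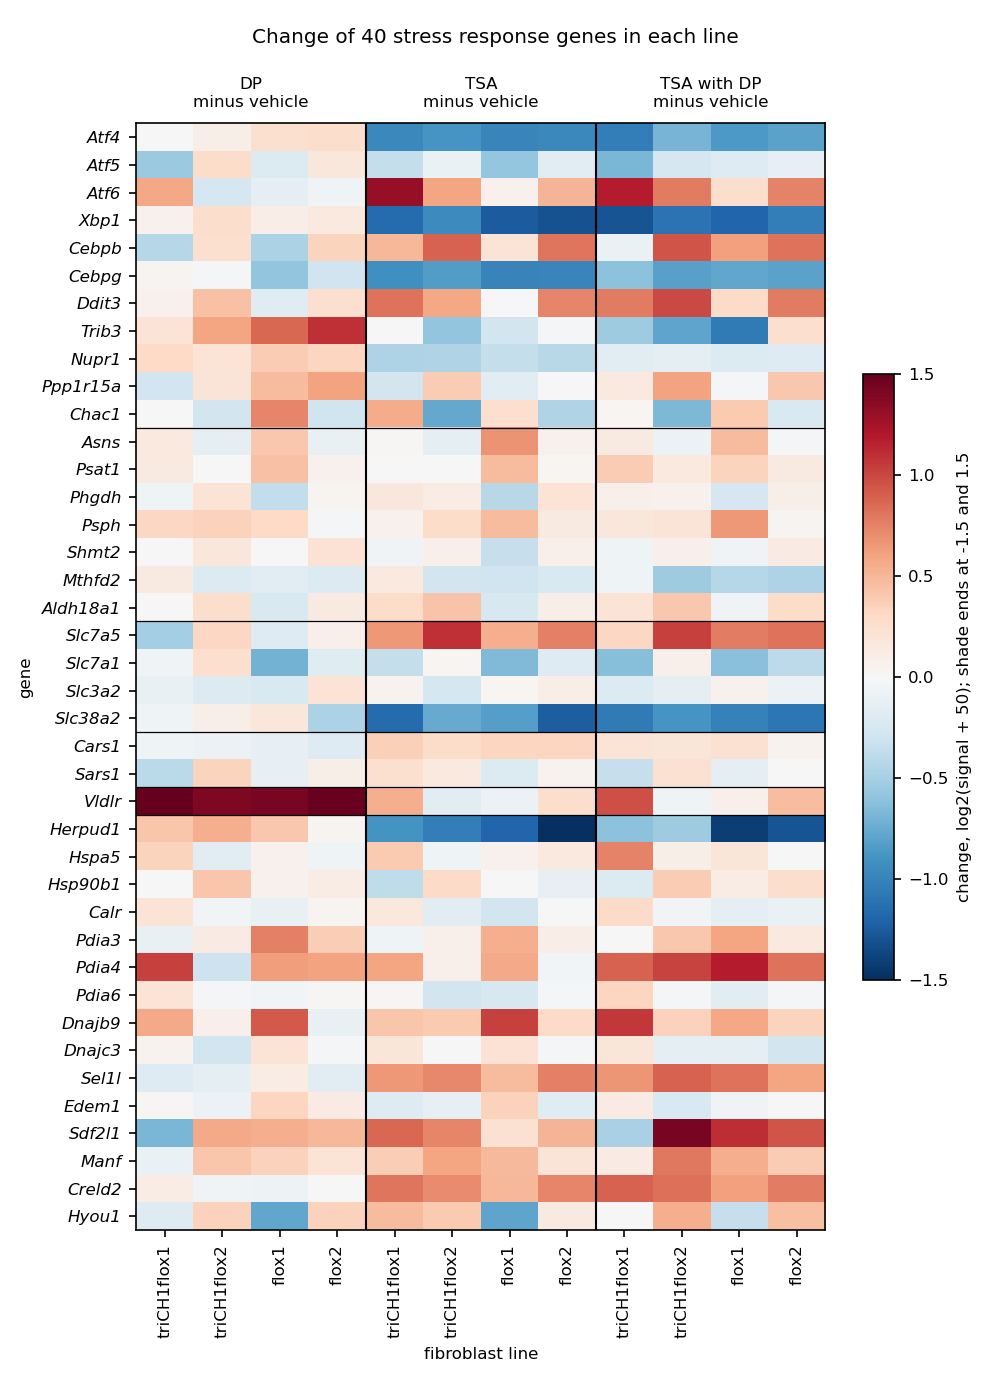
Change of 40 member genes in each of the 4 lines with DP, TSA, and TSA with DP, each against the vehicle array of the same line. Colour gives the difference in log2(signal + 50), red higher and blue lower than vehicle, and shades end at -1.5 and 1.5; black lines separate treatments and gene roles. With DP the Vldlr row is the deepest red, between 1.4 and 1.95 in the 4 lines, and Atf4, Xbp1, Trib3, Nupr1, Herpud1 and Hsp90b1 are also above 0 in all 4; Atf4, Xbp1, Cebpg, Slc38a2 and Herpud1 are blue in all 8 columns with TSA.

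The median change of the amino acid genes and of the ER proteins was set side by side in each line, with no test. The median change with TSA over the 13 tested amino acid genes was 0.06, 0.08, -0.21 and 0.08 in triCH1flox1, triCH1flox2, flox1 and flox2, a mean of 0.00 ± 0.142 (SD, n = 4 lines). Over the 15 ER proteins it was 0.37, 0.08, 0.23 and 0.10, a mean of 0.20 ± 0.135. The median of all genes was between 0.01 and 0.04 in the 4 lines. The ER median was above that of the amino acid genes in 3 of 4 lines and equal to it at the given rounding in triCH1flox2. In flox2 the gap was small, 0.10 against 0.08. It was widest in flox1, whose vehicle array stood apart in RNA quality. Leaving out single lines or arrays gave means of 0.14 to 0.24 for ER proteins and -0.02 to 0.07 for amino acid genes. With DP the means were 0.01 ± 0.125 for amino acid genes and 0.06 ± 0.0957 for ER proteins, a gap below the spread between lines, but the ER mean was 0.2 when all passing probe sets of a gene were averaged. With TSA and DP they were 0.04 ± 0.0612 and 0.25 ± 0.0943, and the ER median was the higher one in all 4 lines. The stress factors had a mean median of -0.29 ± 0.121 with TSA and 0.15 ± 0.0978 with DP. By count, TSA raised 2 and lowered 1 of 13 amino acid genes and raised 4 and lowered 1 of 15 ER proteins. Of all genes tested, 15.8% rose with TSA and 12.5% fell.

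**Figure D4:**
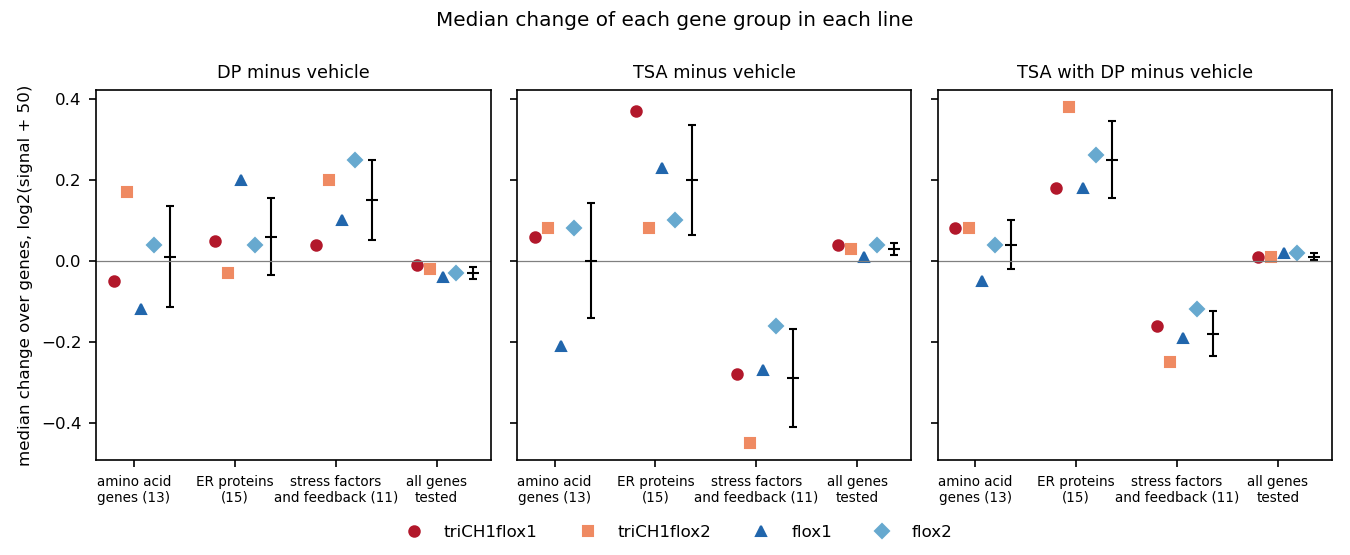
Median change of the amino acid genes, the ER proteins, the stress factors with their feedback genes, and all genes tested, in each line. The vertical axis is the median difference in log2(signal + 50) from vehicle, symbols are lines, and black bars the mean of 4 lines ± SD. The stress factors lie below 0 in all lines with TSA and with both agents, and the ER proteins lie above 0 there.

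Vldlr, the very low density lipoprotein receptor, is known both as an ATF4 target and as a gene raised in hypoxia, and was the member that DP moved most. Its signal was 2868, 2953, 3286 and 4008 with DP, 1055, 959, 1121 and 1696 with TSA, 1429, 1040, 1270 and 1955 with TSA and DP, and 703, 1088, 1197 and 1410 with vehicle. The DP arrays stood above all 12 others. The change with DP was 1.56 (SE 0.141, adjusted p 2.11e-06), 2.95-fold, and it passed in both classes, with 1.68 in the triCH1 lines, where 0.575% of all genes passed, and 1.45 in the control lines. In the control lines it just missed the threshold when flox1 was left out (1.48, adjusted p 0.0524). Of its 4 other probe sets, 3 rose past the threshold, by 1.20, 1.49 and 2.31, and the dimmest gave 1.25 without passing. With TSA present the rise was smaller. TSA with DP minus TSA was 0.23 and did not pass, though it lay above 0 in 4 of 4 lines (0.11 to 0.42). The difference between the DP change with TSA and without it was -1.34 (SE 0.200, adjusted p 0.00295), where 0.392% of all genes passed. It was below 0 on all 5 probe sets, from -2.50 to -0.77, but past the threshold only on the one used here. It did not pass without flox1 (-1.34, adjusted p 0.0854) or without flox2 (-1.33, adjusted p 0.0659).

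Adding DP to TSA changed 0 of 40 members past the threshold, where 0.148% of all genes passed, and 2 members had an unadjusted p under 0.05, where 5.35% of all genes did. These were Nupr1, with 0.24 (adjusted p 0.472), and the isomerase Pdia4, with 0.67 (adjusted p 0.481). Pdia4 had signals of 1878, 2421, 1627 and 1700 with TSA and DP and of 1514, 1251, 1046 and 916 with TSA, and these arrays did not overlap, as for 1.26% of all genes. Against vehicle, the pair of agents gave calls beyond those of TSA for the ER proteins Pdia4 (0.97), Sdf2l1 (0.75), Pdia3 (0.29) and Hspa5 (0.26) and for Psat1 (0.25), and lower signals of Slc7a1 (-0.40), Mthfd2 (-0.37) and Atf5 (-0.31). Only for Pdia4 among these 8 did the call hold in all 16 alternative analyses. Sdf2l1 was lost, for example, without triCH1flox2 (0.27), Hspa5 without triCH1flox1 (0.09), and Atf5, Psat1, Pdia3 and Slc7a1 without flox1 (-0.30, 0.21, 0.18 and -0.34). Mthfd2 was lost without triCH1flox2 (-0.25). Without the flox1 vehicle array alone, 7 calls with both agents did not pass: Atf5 (-0.24, adjusted p 0.181), Dnajb9 (0.41, adjusted p 0.0679), Hspa5 (0.24, adjusted p 0.0852), Pdia3 (0.18, adjusted p 0.11), Psat1 (0.17, adjusted p 0.167), Sdf2l1 (0.75, adjusted p 0.0733) and Slc7a1 (-0.29, adjusted p 0.112). Without the DP array of flox2 the Atf5 call was lost (adjusted p 0.0574). Among the 40 members 2 other calls of TSA, those of Cars1 and Nupr1, were not past the threshold with both agents.

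No member's response passed a test of difference between the triCH1 and the control lines. The DP change of triCH1 lines minus that of control lines passed for 0 of 40 members, where 0.0261% of all genes passed, and 2 members, Pdia3 (-0.55) and Slc7a1 (0.55), had an unadjusted p under 0.05, where 4.87% of all genes did. Trib3 gave -0.58 and Ppp1r15a -0.59 without passing. The interval of this difference stayed within 1.5-fold for 18 of 40 members only, and for 1638 of all 11481 genes. These data thus leave room for larger differences in the rest. For TSA the same difference passed for 0 members and 0 genes in all, with 4 members and 655 genes at an unadjusted p under 0.05. In mean signal over the 4 treatments, triCH1 minus control lines, 0 members passed, where 0.157% of all genes did. This comparison has 2 lines a side. The 8 triCH1 arrays had Xist signals of 1750 to 5390, the 8 control arrays of 10.1 to 111, so sex and genotype cannot be told apart in any comparison of triCH1 with control lines, those of the DP and TSA changes included.

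Further genes of the same pathways were counted by list. With DP, 2 of 17 other ATF4 targets rose, the mTOR inhibitor Ddit4 by 1.75 and the secreted glycoprotein Stc2 by 1.80. Both are also known to rise in hypoxia. The Stc2 vehicle signals, 173, 159, 190 and 177, were all below the signal minimum, so Stc2 entered the test only through treated arrays. Of 25 other ER folding and degradation genes 2 rose, the oxidase Ero1a by 2.14 and Txndc11 by 0.80, and of 9 cytosolic heat shock genes 1 did, Dnajb1 by 0.48, where 1.44% of all genes rose. Txndc11 (0.71 to 0.89, adjusted p 0.115 to 0.293) and Dnajb1 (0.44 to 0.52, adjusted p 0.0662 to 0.122) were lost when any 1 line was left out, and also without the DP array of flox2 (adjusted p 0.0801 and 0.0518). Txndc11 was lost without the flox1 vehicle array too. Its vehicle signals were near the minimum, 201, 145, 181 and 165, so it also entered the test through treated arrays. None of 17 stress sensors and eIF2 genes, 16 other tRNA synthetases or 8 mitochondrial stress genes passed with DP. Their unadjusted counts under 0.05 were 1, 2 and 1, where 12.6% of all genes were under 0.05. Ero1a gave 3455, 3357, 7319 and 8794 with DP, 2373, 2726, 2729 and 2654 with TSA, 5042, 5979, 8849 and 8181 with TSA and DP, and 1243, 1215, 1152 and 1011 with vehicle, so the DP arrays of the triCH1 lines were below those of the control lines. Its DP change was smaller in the triCH1 than in the control lines by a log2 difference of -1.40 (adjusted p 0.0104). This call was lost when any 1 line was left out (-1.63 to -1.18, adjusted p 0.124 to 0.218), without the DP array of flox2 (-1.22, adjusted p 0.186), without the variance trend (adjusted p 0.154), with the array series as a term (adjusted p 0.0663) and as the mean of its probe sets (adjusted p 0.072).

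With TSA, 8 of 17 stress sensors and eIF2 genes rose and 1 fell, where 15.8% of all genes rose and 12.5% fell, shares that stand beside all counts of this paragraph. Ern1, which encodes the sensor IRE1 that splices Xbp1, rose by 1.28 (adjusted p 2.83e-06), with signals of 523, 464, 397 and 481 with DP, 1141, 1227, 1228 and 1155 with TSA, 1224, 1383, 1284 and 1133 with TSA and DP, and 433, 495, 477 and 429 with vehicle. The arrays with and without TSA formed separate bands. The mean of its probe sets gave 0.60 (adjusted p 0.0657). Eif2ak1, the heme-regulated eIF2 kinase, rose by 0.75 and Eif2b1, a subunit of the exchange factor eIF2B, by 0.62, and Ppp1r15b, the constitutive eIF2 phosphatase subunit, fell by 0.64 on the log2 scale. Of 25 other ER genes 9 rose and 0 fell, among them Ero1a (1.15), Ero1b (1.12), Edem3 (0.85) and Sec23b (0.53). Of 17 other ATF4 targets 6 rose, among them Cth (0.85), Jdp2 (0.53) and Stc2 (0.67), and 1, Bcat1, fell (-0.31). Stc2 entered the test only through treated arrays, as given above. Stc2 did not pass without flox2 (0.58, adjusted p 0.105) or triCH1flox1 (0.58, adjusted p 0.0908) or as the mean of its probe sets (0.09), and Bcat1 not without flox1 (-0.29, adjusted p 0.0975), triCH1flox1 (-0.29, adjusted p 0.0666) or the line block (adjusted p 0.22), or as that mean (-0.16). Rars1 (0.44), Kars1 (0.42) and Qars1 (0.38) were the 3 of 16 other tRNA synthetases that rose, and Qars1 did not pass without flox2 (0.32, adjusted p 0.0579) or triCH1flox1 (0.32, adjusted p 0.0889) or as the mean of its probe sets (0.16). Of 9 heat shock genes 4 rose and 1 fell, with Hspa1a at 1.97 and the co-chaperone Bag3 at -0.63. Of 8 mitochondrial stress genes 0 passed, with 1 at an unadjusted p under 0.05, where 38.6% of all genes were. Further calls counted here were lost in some alternatives. Without the flox1 vehicle array these were Edem2 (0.60), Eif2ak4 (0.58), Gpt2 (0.43) and Lonp1 (0.28). Without the variance trend they were Creb3, Dnajb11, Eif2ak4, Hspb1, Hsph1, Lonp1, Selenos and Slc1a5. Creb3l2, Eif2ak3, Txndc11 and Wfs1 were lost in fits without single lines. So were Edem2, Gpt2 and every gene just named for the variance trend. Gpt2 and Lonp1 were lost whichever line was left out.

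**Figure D5:**
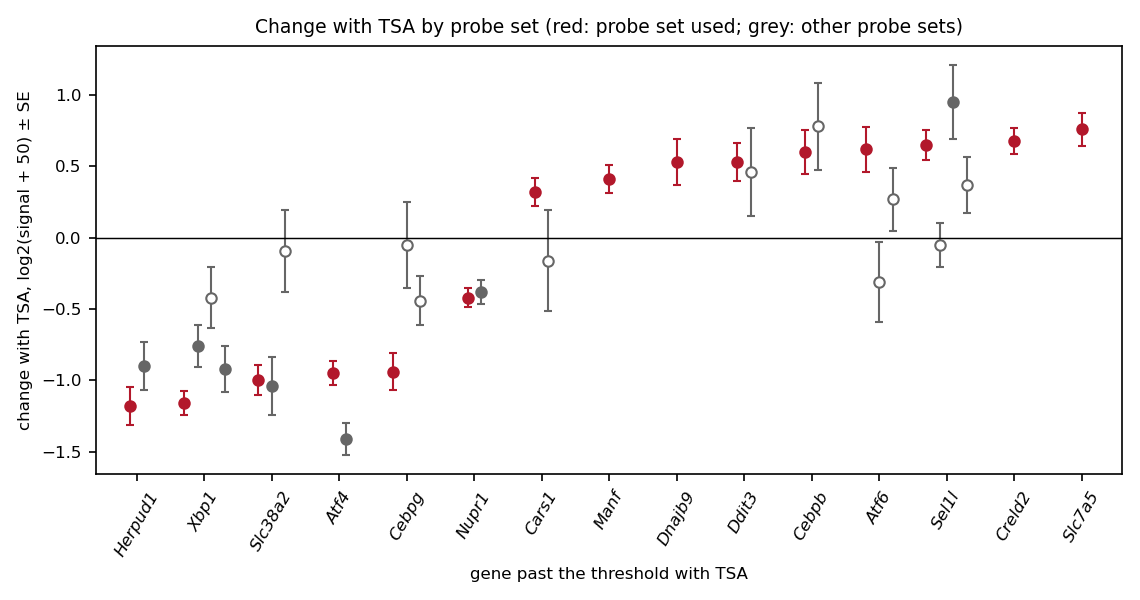
Change with TSA for each probe set of the 15 members past the threshold. The vertical axis is the difference in log2(signal + 50) from vehicle over 4 lines with its SE; red marks the probe set used, grey the others, and filled points passed an adjusted p of 0.05 when each probe set was fitted on its own. For Atf4, Xbp1, Herpud1, Slc38a2, Nupr1 and Sel1l at least 1 further probe set passed in the same direction. Xbp1, Slc38a2 and Sel1l, like Cebpg, Atf6, Cars1, Cebpb and Ddit3, also have further probe sets that did not pass.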

How the data were processed

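RNA from 4 fibroblast lines under 4 treatments was measured on 16 Affymetrix mouse expression arrays. The deposited values are intensities per probe set, scaled by the authors to a 2% trimmed mean of 500, per the labels; the software version is not given in the sources used here. Of 45101 probe sets, 34945 non-control ones name 1 gene, 19895 reached a signal of 200 on at least 2 arrays, and 1 per gene, the brightest, gave 11481 genes. The number of arrays limits the precision. All columns were mapped, with 0 left over.

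From the deposited intensities, log2(signal + 50) was computed and fitted with limma 3.58.1 in R 4.3.3: 8 means of class and treatment, the line as a block, a variance trend, 6 residual and 10.4 prior degrees of freedom, and Benjamini-Hochberg adjustment over 11481 genes. The mean signals of the classes were compared on line means. Class differences in the DP and TSA changes came from the fit of all arrays. Intervals are 95%. Pairing comes from the labels, since each line received all 4 treatments. Deviations from group means correlated at 0.077 to 0.328 within lines (24 pairs) and at 0.00969 to 0.17 between same-numbered lines of the other class (32 pairs). With 2 lines per class, the deviations of a line mirror those of the other line, so each correlation was counted for 2 pairs. The scripts were tested on simulated data.

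Any member may be named. Values by array are given for Atf4, Ddit3, Trib3, Asns, Hspa5 and Xbp1. They are also given for members past the threshold, at most the 8 smallest adjusted p in each comparison. Further pathway lists are named by up to 4 genes of smallest adjusted p per agent, and by genes whose call with TSA was lost in an alternative. The members and all lists were chosen with earlier results of these data known. The ER stress element II, the fit without the DP array of flox2, the fit of each probe set and the alternatives for non-member genes were chosen after seeing the data.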

Additional observations from a re-analysis of the deposited data

Results flagged for a closer look

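The change of Vldlr, the very low density lipoprotein receptor, with DP differed between cells with and without TSA, by a test of the difference itself. The DP change with TSA minus the DP change without it was -1.34 on the log2 scale (limma, adjusted p 0.00295) and lay below 0 in 4 of 4 lines. It is flagged because the same contrast gave different effects under the 2 conditions. As given above, it was past the threshold only on the probe set used, and not when flox1 or flox2 was left out. It also did not pass with the mean of all passing probe sets (limma, adjusted p 0.0708) or without the variance trend (adjusted p 0.117).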

How the results depend on the processing

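The 42 member results past the threshold were recomputed under 16 alternatives. Of the 672 pairs of result and alternative, 564 kept direction and call, 108 no longer passed and 0 reversed, and no rescaling moved the median of all genes by over 0.1. With TSA, Atf4, Xbp1, Cebpg, Herpud1, Slc38a2, Slc7a5, Creld2 and Sel1l passed in all 16, as did Vldlr with DP over 4 lines. The cause of each shift below was not tested. The array series is a number shared by groups of array barcodes. All vehicle arrays were of the same series, while the other series held the treated arrays of triCH1flox1 and the flox2 array with TSA and DP. In triCH1flox1 treatment and series thus cannot be told apart. With the series as a limma term, Dnajb9 with TSA (adjusted p 0.0561) and Nupr1 with DP (0.0657) were lost. With both agents Atf5 (0.514), Hspa5 (0.312), Slc7a1 (0.25), Psat1 (0.21), Dnajb9 (0.16) and Atf6 (0.0596) were lost. Members past the threshold with DP over 4 lines numbered 2, against 1 without the filter, without the line block, without the variance trend, with array weights and with the array series as a term, and 1 to 2 without single lines or arrays. In the control lines they numbered 2, against 1 without the filter, the block or the trend, and 0 to 2 on leaving out. The Vldlr difference in DP change counted 1, against 0 with the mean of all passing probe sets and without the trend, and 0 to 1 on leaving out. With TSA and DP they numbered 21, against 13 without the trend, and 14 to 20 on leaving out. The ER median with DP was 0.06, against 0.2 with the mean of probe sets.

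Without the trend, all genes past the threshold numbered 124 for DP (main 196), 94 for DP in control lines (178), 27 for DP in triCH1 lines (66), 0 for the DP difference between classes (3, and 0 also with the array series), 9 for TSA with DP minus TSA (17), 14 for the difference in DP change (45) and 2 for class line means (18, and 32 without the filter). With array weights, DP in control lines gave 104 and TSA with DP minus TSA 26. Leaving out single lines or arrays gave 108 to 195 genes for DP, 61 to 246 in control lines, 17 to 79 in triCH1 lines, 0 to 3 for the DP difference between classes, 2071 to 3212 for TSA (3241), 0 to 6 for its difference between classes (0), 2285 to 3577 for TSA with DP (3624), 11 to 23 for TSA with DP minus TSA, 16 to 45 for the difference in DP change and 16 to 209 for class line means. The extremes were 108 for DP and 17 for DP in triCH1 lines without triCH1flox2, 61 for DP in control lines without flox1, 16 for the difference in DP change without flox2 or triCH1flox2, and 209 for class line means without flox2. Without the line as a replicate block, DP gave 135 genes, DP in control lines 99, TSA 2622 with 12 members, TSA with DP 2889 with 15 members, and TSA with DP minus TSA 11. A leave-out that left 1 line in a class assumed that it varies like the others. Cebpg, Atf6, Ddit3 and Cars1 have further, dimmer probe sets that did not pass with TSA, and the part of dimness was not tested.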
